A study of Homo sapiens with 18 samples.

Results

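The genes described here are 9 members of the HSP70 co-chaperone, small heat shock protein and polyubiquitin families, namely BAG1, BAG2, BAG3, BAG4, BAG5, BAG6, HSPB1, CRYAB and UBB. They were picked by symbol from the 43735 genes of the raw count table, and 8 of them were among the 14281 genes that passed the filter on low counts and entered the test. CRYAB did not pass it and was not tested. RNA was sequenced from MM1S and MM1R, 2 multiple myeloma cell lines of the same origin that are sensitive (MM1S) and resistant (MM1R) to glucocorticoids. Each line was left untreated, treated for 3 h with 5 µM RSL3, an inhibitor of the lipid peroxide-reducing enzyme GPX4, or given 2 µM ferrostatin-1 (Fer-1), a radical-trapping inhibitor of ferroptosis, for 2 h before the same RSL3 treatment. There were 3 libraries in each of the 6 groups, 1 for each passage of the cells, with passages 4, 6 and 7 of MM1R and passages 16, 22 and 23 of MM1S as replicates 1, 2 and 3. No library came from cells given Fer-1 alone, and the replicates of a group are passages of 1 cell line, so p-values measure the spread between passages. The 18 libraries held 17635438 to 19368343 counts, and levels are given as CPM, counts scaled to the TMM-adjusted size of their library, unless stated otherwise. In bulk RNA, fewer cells that transcribe a gene and less RNA of that gene per cell cannot be told apart.

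Most BAG proteins hold a domain that binds the ATPase part of HSP70 and helps HSP70 release its client protein. BAG3 couples HSP70 to small heat shock proteins and to selective autophagy of misfolded clients, whereas BAG6 guides mislocalised and tail-anchored membrane proteins. HSPB1 and CRYAB hold unfolding proteins without using ATP, and UBB encodes head-to-tail ubiquitin repeats that supply free ubiquitin. The transcription factor HSF1 drives many chaperone genes when unfolded proteins accumulate.

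Of the 9 genes, 7 had an entry in the RefSeq promoter table of GRCh38.p14, which left out BAG4 and CRYAB. The 250 bases before each start site were searched on both strands for the heat shock element cores GAANNTTC and TTCNNGAA, the AP-1 site TGACTCA and the antioxidant response element core TGACNNNGC. Among 35116 promoter windows of the same length, 5.781% held GAANNTTC, 6.618% TTCNNGAA, 4.203% TGACTCA and 10.91% TGACNNNGC. The windows of the 3 members whose RNA moved most are printed 5′ to 3′ with the matched bases in capitals, because each held 1 match and these were of different kinds. The BAG3 window is chr10:119651130-119651379 on the plus strand, the HSPB1 window chr7:76302423-76302672 on the plus strand and the second of the UBB windows chr17:16381091-16381340 on the plus strand.
BAG3: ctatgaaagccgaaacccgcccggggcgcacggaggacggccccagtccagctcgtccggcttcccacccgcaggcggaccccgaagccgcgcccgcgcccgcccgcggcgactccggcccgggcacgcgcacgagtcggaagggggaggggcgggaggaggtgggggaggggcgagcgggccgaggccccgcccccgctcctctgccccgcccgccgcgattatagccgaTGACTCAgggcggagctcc
HSPB1: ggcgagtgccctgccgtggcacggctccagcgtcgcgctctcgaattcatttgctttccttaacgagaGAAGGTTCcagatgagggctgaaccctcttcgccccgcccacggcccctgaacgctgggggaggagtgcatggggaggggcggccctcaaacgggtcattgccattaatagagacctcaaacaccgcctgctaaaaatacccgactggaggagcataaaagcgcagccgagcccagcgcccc
UBB: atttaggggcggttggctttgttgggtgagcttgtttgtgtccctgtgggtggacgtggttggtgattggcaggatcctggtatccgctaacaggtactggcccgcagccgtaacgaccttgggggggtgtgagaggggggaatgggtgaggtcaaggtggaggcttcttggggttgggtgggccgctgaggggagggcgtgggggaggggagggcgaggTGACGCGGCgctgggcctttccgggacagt
The capitals mark an AP-1 match 19 to 13 bases before the BAG3 start, a heat shock element core 182 to 175 bases before the HSPB1 start and an antioxidant response element core 30 to 22 bases before the UBB start. BAG2 held a GAANNTTC match 124 to 117 bases before its start. The windows of BAG1, BAG5 (2 windows), BAG6 (2 windows) and the first UBB window held no match, which says only that these letters are not in these 250 bases. A match is a description of the sequence and no evidence that a factor binds there.

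**Figure D1:**
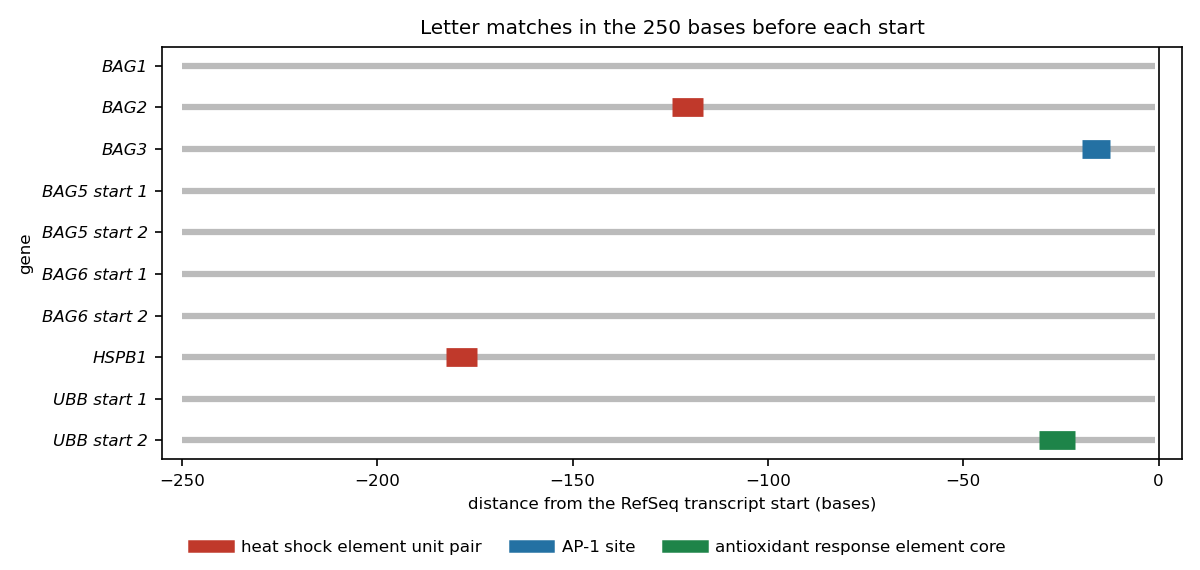
Positions of the motif matches in the 250 bases before each RefSeq start site of 7 members, with the distance to the start in bases on the x axis and 1 line for each of 10 windows. BAG2, BAG3, HSPB1 and the second UBB window each held 1 match, and the other windows held none.

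Before treatment, the members covered a wide range of levels. Divided by the exon length of the gene, UBB was the highest in untreated MM1R at 748 CPM per kb, followed by HSPB1 at 71.7, BAG1 at 32.4 and BAG3 at 21.1 CPM per kb. BAG5, BAG6, BAG4 and BAG2 followed at 7.92, 4.59, 4.58 and 2.34 CPM per kb. In untreated MM1S, the same scale read 512 for UBB, 33.5 for BAG1, 29.0 for HSPB1 and 23.4 for BAG3. Neighbours in this order did not overlap between libraries, except that BAG6 and BAG4 overlapped in both lines and BAG1 and HSPB1 overlapped in MM1S. After RSL3, the mean CPM per kb of BAG3 was 117 in MM1R and 304 in MM1S, and that of HSPB1 was 208 and 265, so that both stood above BAG1 at 31.5 and 33.8. Taken across libraries, the ranges of BAG3 and HSPB1 overlapped in both lines after RSL3, and reached that of UBB in MM1S. Within each RSL3-treated library, HSPB1 was above BAG3 in MM1R and below it in MM1S, and UBB was above both. In MM1S the highest values were 1127 for UBB, 703 for BAG3 and 682 CPM per kb for HSPB1.

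**Figure D2:**
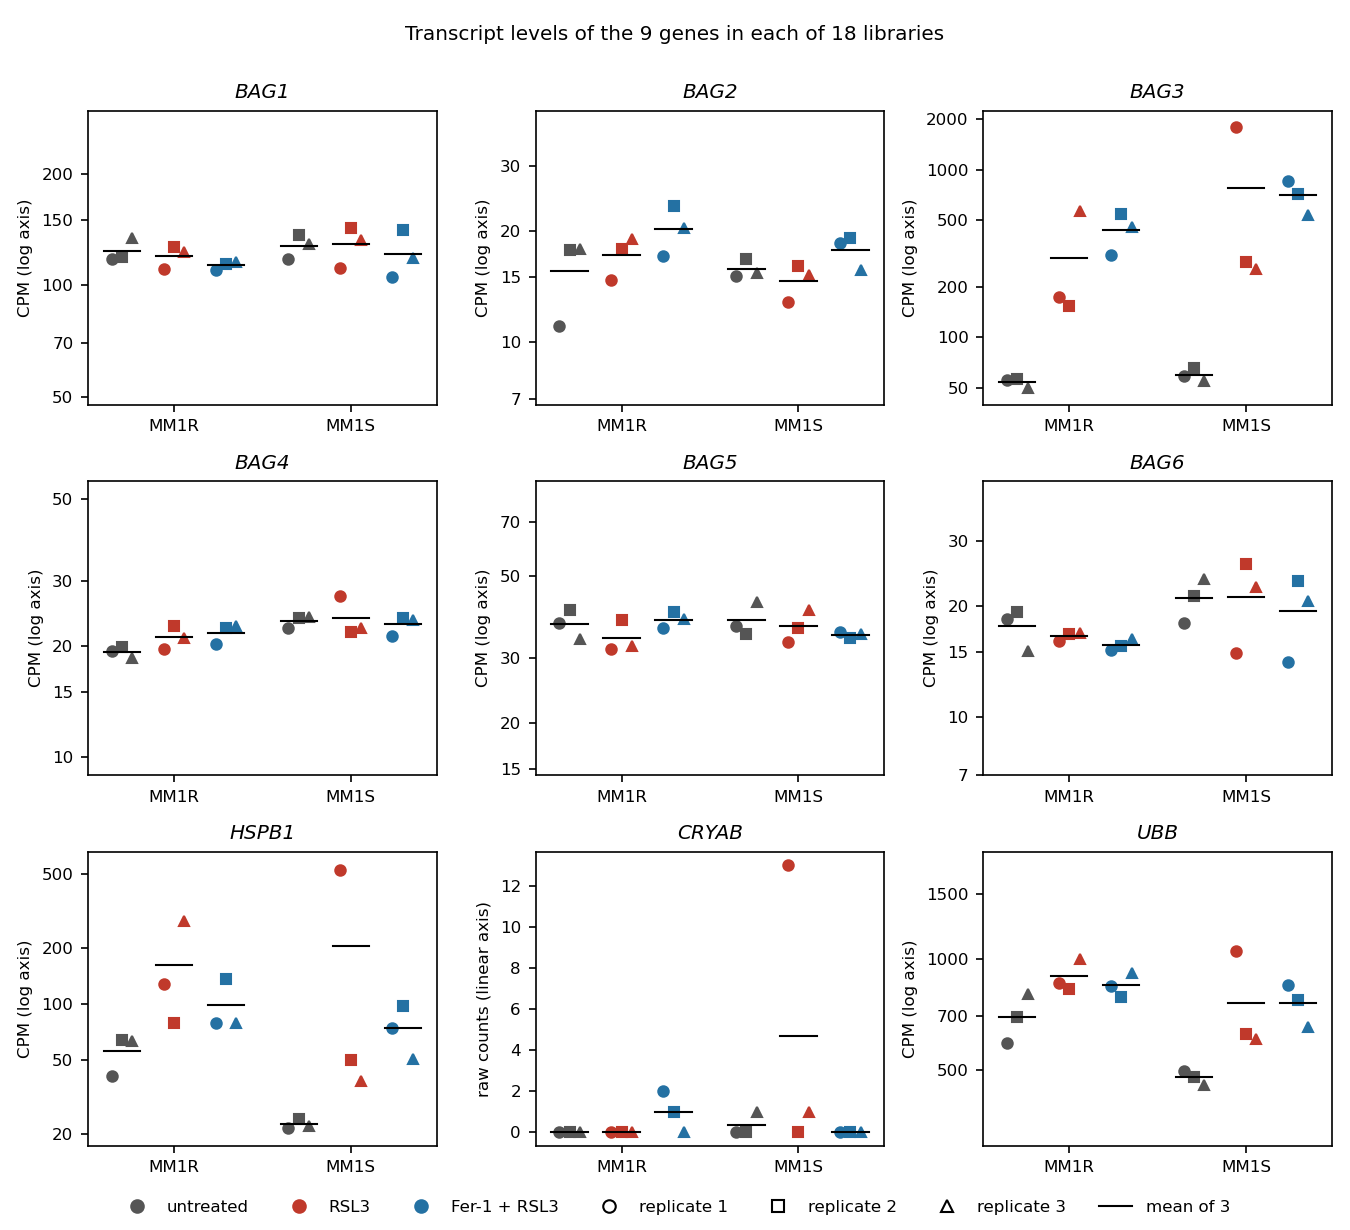
Level of each member in all 18 libraries by line and treatment, in CPM on a log axis, with raw counts on a linear axis for CRYAB. Marker shape gives the replicate and the bar the mean of 3 libraries, and the treated libraries of BAG3 and HSPB1 all lie above the untreated libraries of the same line.

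Some libraries stood apart from the rest of their group. The library labelled MM1S RSL3 replicate 1 (passage 16) had the lowest TMM factor of all, 0.864, and the highest level of BAG3, HSPB1 and UBB. In MM1R, Fer-1 + RSL3 replicate 2 (passage 6) held 50.2 CPM of NR3C1, the glucocorticoid receptor gene, against 16.9 and 15.3 CPM in the other libraries of its group and 89.9 to 391.8 CPM in MM1S. Where leaving out either library changed a call or the sign of a fold change of BAG3, HSPB1 or UBB, the value without it is given too. Of the fold changes that moved without a change of call or sign, only some are given. The plasma cell markers lay at 41.0 to 1649 CPM over the libraries, while CD3D, CD14 and LYZ, markers of T cells and monocytes, lay at or under 0.38 CPM. Of the other markers listed against them, CD3E and HBB reached 11.5 and 12.7 CPM.

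BAG3, the HSP70 nucleotide exchange factor that heat and proteotoxic stress induce, was the member with the largest change. Untreated MM1R libraries held 56.0, 56.6 and 49.8 CPM of BAG3 in replicates 1 to 3, RSL3-treated libraries 174, 154 and 569 CPM, and Fer-1 + RSL3 libraries 310, 543 and 455 CPM. Untreated MM1S libraries held 59.2, 65.4 and 55.1 CPM, RSL3-treated libraries 1801, 283 and 255 CPM, and Fer-1 + RSL3 libraries 857, 714 and 538 CPM. All 12 treated libraries were above all 6 untreated ones, and within RSL3 the libraries of MM1R passage 7 and MM1S passage 16 were far above the other passages. BAG3 rose after RSL3 by 2.47 log2 units in MM1R (SE 0.62, adjusted p = 0.0376) and by 3.70 in MM1S (SE 0.65, adjusted p = 0.00654) in the quasi-likelihood test of edgeR, with p-values adjusted over all 14281 genes by the Benjamini-Hochberg method. Averaged over the lines, the log2 fold change was 3.08 (SE 0.45, adjusted p = 0.000354, edgeR), and it was 2.32 without MM1S RSL3 replicate 1. The rise in the 2 lines was not shown to differ, with an interaction of line and RSL3 of −1.24 log2 units (SE 0.83, adjusted p = 0.9999, edgeR).

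A gene is called here where its adjusted p is under 0.05 and its log2 fold change exceeds 1 in size. RSL3 against untreated called 1 of the 8 tested members in MM1R (BAG3), against 1.2% of all tested genes, and 2 in MM1S (BAG3 and HSPB1), against 1.61%. The averaged comparison called BAG3 and HSPB1, against 3.24% of genes. Without MM1S RSL3 replicate 1, the called members were BAG3 and HSPB1 in MM1R, BAG3 in MM1S, and both again in the averaged comparison. The share of all genes called in that fit is not given here. BAG3, HSPB1 and UBB each had all RSL3 libraries above all untreated libraries of the same line in both lines, which held for 6.13% of all tested genes. The MM1R call of BAG3 was fragile: it remained in 9 of 18 fits that each left out 1 library, and without MM1R RSL3 replicate 3 the log2 fold change of BAG3 was 1.61 (adjusted p = 0.169, edgeR). It was also lost without RSL3 replicate 1 or any untreated library of MM1R (adjusted p = 0.0644 to 0.124), and without any 1 of 4 MM1S libraries, untreated replicate 2 or 3 and Fer-1 + RSL3 replicate 2 or 3 (adjusted p = 0.0509 to 0.0525, edgeR). In MM1S, BAG3 was called in all 18 such fits, with a log2 fold change of 2.17 (adjusted p = 0.0109, edgeR) without MM1S RSL3 replicate 1. A fit to the MM1S libraries alone gave BAG3 3.69 and an adjusted p of 0.0573, which did not pass.

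**Figure D3:**
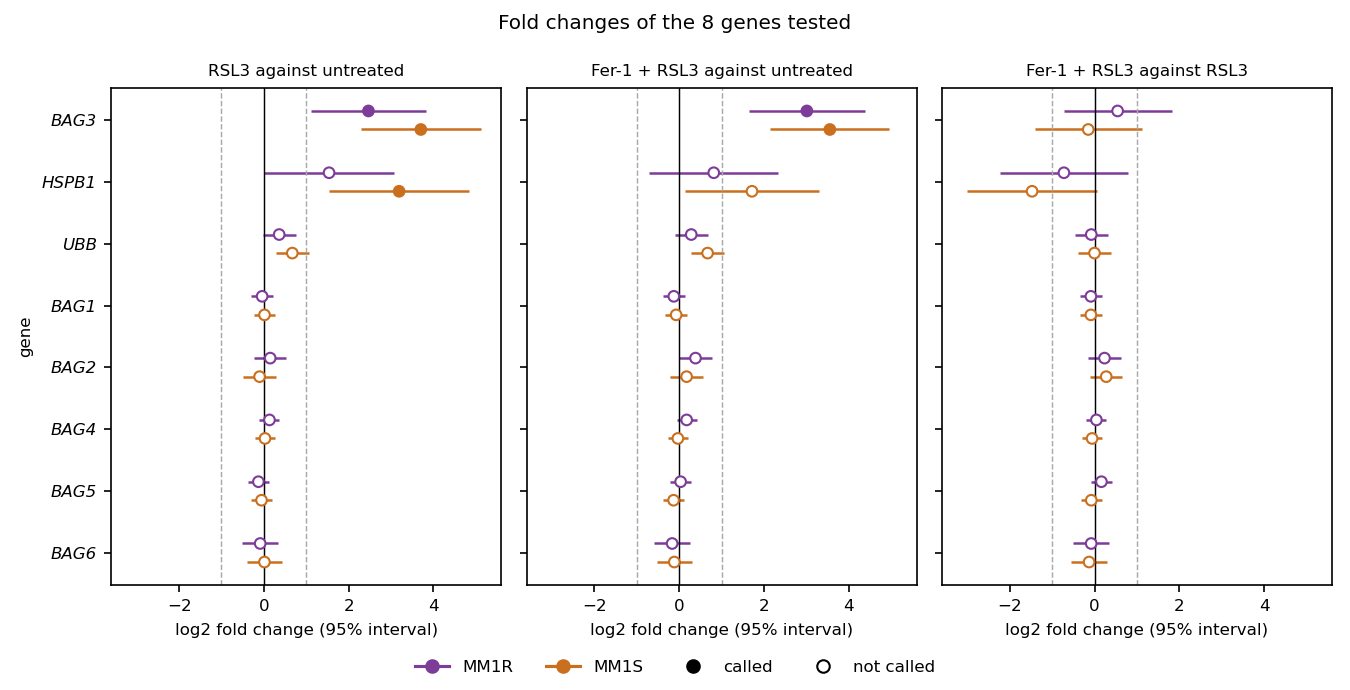
Log2 fold change with its 95% interval for the 8 tested members in 3 comparisons, with MM1R in purple, MM1S in orange, filled symbols for calls and dashed lines at a log2 fold change of 1 in either direction. BAG3 lies beyond the line after RSL3 and after Fer-1 + RSL3 against untreated in both lines, and all intervals of Fer-1 + RSL3 against RSL3 include 0.

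Pre-treatment with Fer-1 did not bring BAG3 to the untreated level. Fer-1 + RSL3 against untreated gave a BAG3 log2 fold change of 3.01 in MM1R (SE 0.63, adjusted p = 0.00763, edgeR) and 3.55 in MM1S (SE 0.64, adjusted p = 0.00457, edgeR), and both were called in all 18 fits without 1 library. Without MM1R Fer-1 + RSL3 replicate 2, the MM1R value was 2.82 (adjusted p = 0.0260, edgeR). BAG3 was the only member called in that comparison in either line, against 2.16% of all tested genes in MM1R and 1.37% in MM1S. BAG3 and HSPB1 had all Fer-1 + RSL3 libraries above all untreated libraries in both lines, as 8.36% of all tested genes did.

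Set directly against RSL3, Fer-1 + RSL3 moved no member past the threshold. The difference for BAG3 was 0.54 log2 units in MM1R (95% interval −0.73 to 1.81, adjusted p = 0.926) and −0.15 in MM1S (95% interval −1.42 to 1.12, adjusted p = 0.994) in edgeR's quasi-likelihood test. Both intervals reach beyond a log2 difference of 1 on 1 side at least, so a change of that size was not excluded with 3 passages. Single libraries set these values: without MM1S RSL3 replicate 1 the MM1S difference of BAG3 turned to 1.38 and the averaged one went from 0.20 to 0.96, and without MM1R RSL3 replicate 3 the MM1R difference was 1.39, none of which passed. Without MM1R Fer-1 + RSL3 replicate 2, the MM1R difference was 0.35 and the averaged one 0.10, and neither passed. The count of called members was 0 in MM1R, in MM1S and averaged over the lines, as it was with DESeq2, against 0%, 0% and 0.056% of all tested genes. At an unadjusted p under 0.05, edgeR marked 0 members in each line and 1, HSPB1, in the averaged comparison, where 881, 821 and 1826 of all tested genes passed that limit.

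The passages showed where the spread of BAG3 lay. Its RSL3 to untreated ratio within a passage ran from 2.73-fold to 30.4-fold, with a median log2 ratio of 2.16 (SD 1.33, 6 passages). With Fer-1 before RSL3, the ratio to untreated ran from 5.54-fold to 14.5-fold, with a median log2 ratio of 3.27 (SD 0.452). Fer-1 + RSL3 was higher than RSL3 in 4 of 6 passages and lower in MM1R passage 7 and MM1S passage 16. Those were the passages with the highest BAG3 after RSL3 alone, and the 2 ratios share that RSL3 library, so neither is independent of the other.

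**Figure D4:**
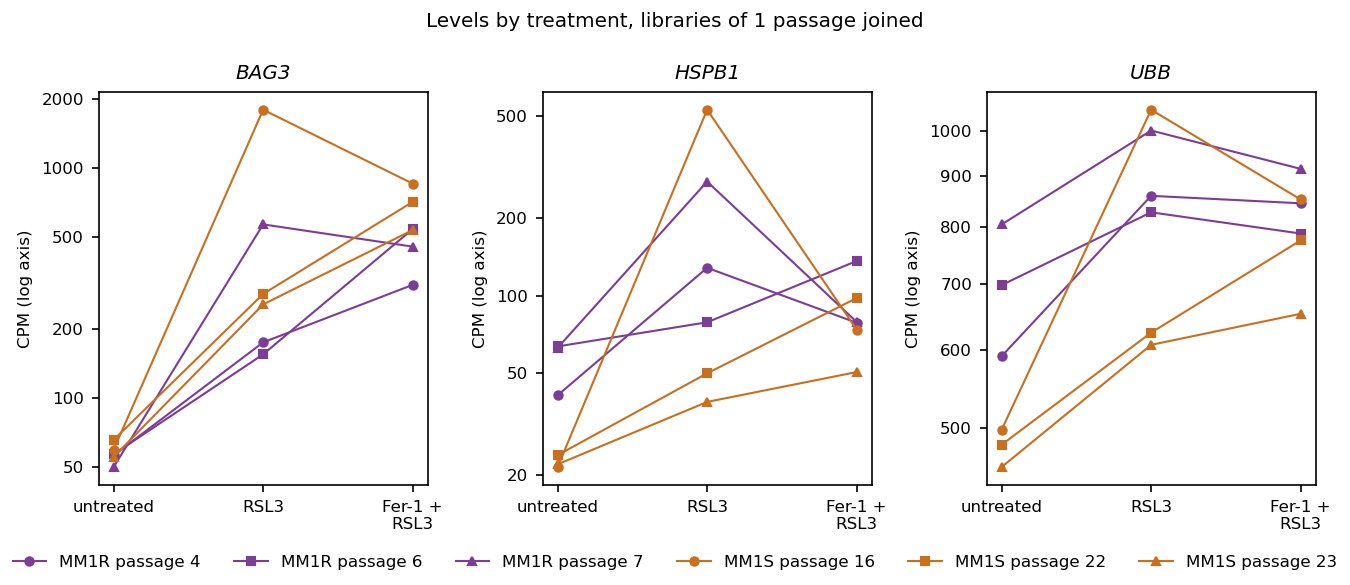
BAG3, HSPB1 and UBB in CPM on a log axis for untreated, RSL3 and Fer-1 + RSL3 libraries, with the 3 libraries of 1 passage joined by a line. The line of MM1S passage 16 peaks at RSL3 in all 3 panels, while BAG3 of 4 passages is highest with Fer-1 + RSL3.

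The other 5 BAG genes stayed close to their untreated level. BAG1, which links HSP70 to the proteasome, ranged from 105 to 143 CPM over all 18 libraries. BAG2, an inhibitor of the CHIP ubiquitin ligase, ranged from 11.1 to 23.4 CPM. BAG4, which binds death receptor domains, ranged from 18.5 to 27.2 CPM and BAG5, with several BAG domains in 1 protein, from 31.7 to 42.5 CPM. BAG6 ranged from 14.2 to 26.1 CPM. None of these 5 was called in any comparison. Their RSL3 log2 fold changes lay between −0.13 (BAG5 in MM1R) and 0.15 (BAG2 in MM1R). The 95% intervals reached lowest for BAG6 in MM1R (−0.51 to 0.34 log2 units) and highest for BAG2 in MM1R (−0.23 to 0.53), so a 1-unit log2 change after RSL3 lay outside every interval of these 5 genes in both lines.

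Between Fer-1 + RSL3 and RSL3, some of these genes differed by small amounts of the same sign in all passages, with overlapping groups in each line. BAG2 was higher with Fer-1 + RSL3 than with RSL3 in 6 of 6 passages, by 0.05 to 0.53 log2 units, and higher than untreated in 6 of 6. BAG1 and BAG6 were lower with Fer-1 + RSL3 than with RSL3 in 6 of 6 passages, by −0.17 to −0.01 for BAG1 and −0.16 to −0.05 log2 units for BAG6. The tests of the differences from RSL3 gave adjusted p = 0.402 for BAG2, 0.722 for BAG1 and 0.805 for BAG6 (edgeR, averaged over lines). No share of all tested genes with 1 sign in 6 of 6 passages stands beside these counts, so they do not set the genes apart. For BAG2 in MM1R, Fer-1 + RSL3 against untreated gave 0.38 log2 units (SE 0.17, adjusted p = 0.187, edgeR), and with passage as a block the adjusted p was 0.0235 with the fold still under the limit.

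HSPB1, the small heat shock protein HSP27, moved less evenly than BAG3. Untreated MM1R libraries held 41.0, 63.5 and 62.7 CPM of HSPB1, RSL3-treated libraries 128, 78.9 and 278 CPM, and Fer-1 + RSL3 libraries 78.5, 137 and 79.1 CPM. Untreated MM1S libraries held 21.6, 24.0 and 22.1 CPM, RSL3-treated libraries 530, 49.9 and 38.6 CPM, and Fer-1 + RSL3 libraries 73.8, 97.95 and 50.5 CPM. RSL3 libraries were above untreated ones in both lines without overlap, but the MM1S mean of 206 CPM (SD 280, n = 3) came mostly from the library of passage 16. Without that library (MM1S RSL3 replicate 1), the HSPB1 log2 fold change in MM1S went from 3.19 (SE 0.76, adjusted p = 0.0278) to 0.98 (adjusted p = 0.300, edgeR). The MM1S call was also lost without any 1 of the 3 untreated MM1S libraries (adjusted p = 0.0931 to 0.126, edgeR).

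In MM1R, the log2 fold change of HSPB1 after RSL3 was 1.54 (SE 0.71, adjusted p = 0.256, edgeR) and did not pass. It passed in the fit without MM1S RSL3 replicate 1, where the same value had an adjusted p of 0.0133 in a fit whose estimate of spread draws on all libraries. Averaged over lines, HSPB1 rose by 2.36 log2 units (SE 0.52, adjusted p = 0.00591, edgeR), and by 1.26 (adjusted p = 0.00511) without MM1S RSL3 replicate 1. Within passages the RSL3 to untreated log2 ratio of HSPB1 was above 0 in 6 of 6 and ran from 0.31 to 4.62.

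With Fer-1 before RSL3, HSPB1 was higher than untreated in 6 of 6 passages, by 0.33 to 2.03 log2 units. The fitted values were 0.81 in MM1R (adjusted p = 0.505) and 1.72 in MM1S (adjusted p = 0.199, edgeR), and without MM1S RSL3 replicate 1 the MM1S difference passed (1.72, adjusted p = 0.00786). Without MM1R Fer-1 + RSL3 replicate 2, the MM1R value of HSPB1 was 0.50 (adjusted p = 0.777, edgeR). Against RSL3 alone, the averaged difference was −1.10 log2 units (SE 0.49, adjusted p = 0.365, edgeR) and was 0.00 without MM1S RSL3 replicate 1. In MM1S alone it was −1.47 (adjusted p = 0.870) and turned to 0.74 without that library, neither of which passed. HSPB1 was higher with Fer-1 + RSL3 than with RSL3 in 3 of 6 passages, so the passages were evenly split.

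Between the untreated lines, every MM1R library of HSPB1 was above every MM1S library. The difference of 1.31 log2 units had an adjusted p of 0.281 in edgeR's quasi-likelihood test and an adjusted p of 0.0234 without MM1S RSL3 replicate 1. None of the 8 members was called between the untreated lines, against 4.64% of all tested genes, and DESeq2 called 0 as well. At an unadjusted p under 0.05, edgeR marked 2 of the 8, UBB and BAG4, and 3545 of all 14281 tested genes. UBB was 0.55 log2 units higher in MM1R (SE 0.18, adjusted p = 0.0629, edgeR), under the fold limit. BAG4 was 0.28 log2 units lower in MM1R, a fitted value of −0.28 with an adjusted p of 0.112 (edgeR).

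The interaction of line and RSL3 called 0 of 8 members and 0% of all tested genes with edgeR, and DESeq2 called 0 members. At an unadjusted p under 0.05, edgeR marked 0 members and 222 of all tested genes. For HSPB1 the interaction was −1.65 log2 units (SE 0.99, adjusted p = 0.9999) and for UBB −0.31 (adjusted p = 0.9999, edgeR). Without MM1S RSL3 replicate 1 the sign of the interaction turned for BAG3 (0.30) and HSPB1 (0.56) and the value of UBB was −0.00, none of which passed.

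CRYAB, the other small heat shock protein of the set, was at the edge of detection. It had 18 counts over all 18 libraries, 13 libraries were at 0 and MM1S RSL3 replicate 1 alone held 13 counts (0.854 CPM). A count of 0 in a library of this depth allows up to 3 counts, so no change of CRYAB outside that 1 library was detectable. Among 9 further small heat shock protein genes listed, 2 were tested and neither was called by RSL3. The shares of all tested genes called were 1.2% in MM1R, 1.61% in MM1S and 3.24% averaged over lines, so this count is near them. HSPB8, the usual partner of BAG3, had 0 counts in all 9 MM1S libraries and 4 to 22 in MM1R libraries.

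UBB, which is abundant before treatment, changed by less than BAG3 or HSPB1. Untreated MM1R libraries held 591, 698 and 804 CPM, RSL3-treated libraries 860, 827 and 1002 CPM, and Fer-1 + RSL3 libraries 845, 787 and 916 CPM. Untreated MM1S libraries held 497, 480 and 456 CPM, RSL3-treated libraries 1052, 624 and 607 CPM, and Fer-1 + RSL3 libraries 852, 775 and 652 CPM. Every treated library was above the untreated library of its own passage, though in MM1R 1 untreated and 1 Fer-1 + RSL3 library crossed. After RSL3 UBB was higher by 0.36 log2 units in MM1R (SE 0.18, adjusted p = 0.299) and 0.67 in MM1S (SE 0.18, adjusted p = 0.0483, edgeR), and by 0.37 (adjusted p = 0.237) in MM1S without MM1S RSL3 replicate 1. Averaged over lines the value was 0.52 (SE 0.13, adjusted p = 0.0123, edgeR), past the limit on p and under that on fold. Fer-1 + RSL3 against untreated gave 0.28 in MM1R (adjusted p = 0.345) and 0.67 in MM1S (adjusted p = 0.0427, edgeR). Against RSL3 alone, Fer-1 + RSL3 gave UBB −0.002 log2 units in MM1S and −0.04 averaged over lines. Without MM1S RSL3 replicate 1 these values turned to 0.30 and 0.11, and none of them passed.

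Of the 50-base stretches of the UBB exons, 57.1% also occur in other annotated genes, UBBP4 and UBBP1 among them, so the counts of UBB depend on how shared reads were assigned. The same share was 44.3% for BAG2, 13.5% for HSPB1 and under 5% for the other 6 members.

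The plain BAG6 row was 1 of 7 rows for that gene in the raw table, with the others carrying a number after the symbol. These numbered rows held 80 counts against 6237 in the plain row, or 1.27% of the BAG6 total, so adding them would change its level little. How reads that fit several of these rows were counted is not given, so the level of BAG6 may be understated. In HSPA1B, an HSP70 gene that BAG proteins serve, the plain row held 62 counts and the copies 54742, or 99.9%. Summed over these rows, HSPA1B was at 5.18 CPM ± 0.73 (SD, n = 3) in untreated MM1R, 173 ± 155 after RSL3 and 191 ± 29.1 after Fer-1 + RSL3. In MM1S it was at 5.999 ± 1.40, 310 ± 366 and 338 ± 43.3 CPM (SD, n = 3). Every treated library was above every untreated one, and the RSL3 libraries spread widest, as for BAG3.

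The chaperone genes that HSF1 drives gave a setting for BAG3 and HSPB1. Of 21 listed HSF1 and chaperone target genes, 19 were tested. The list, which also holds HSF2, was chosen with earlier results of these data known, so its counts are no independent support. RSL3 called 4 of them in MM1R, 8 in MM1S and 9 averaged over lines, all higher. The shares of all tested genes called were 1.2%, 1.61% and 3.24%. The median log2 fold change of the 19 genes was 0.73 in MM1R, 1.17 in MM1S and 0.95 averaged, against a median near 0 of all genes. Fer-1 + RSL3 against untreated called 9 of the 19 in MM1R and 7 in MM1S, against 2.16% and 1.37% of all tested genes. DNAJB1, the HSP40 that loads clients onto HSP70, rose by 3.89 log2 units (adjusted p = 0.000186) and HSP90AA1, an inducible HSP90, by 2.29 (adjusted p = 0.00156) with RSL3 averaged over lines (edgeR). HSF1 itself had a value of 0.11 (adjusted p = 0.683) and HSF2 of −0.29 (adjusted p = 0.0263, under the fold limit).

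Genes listed as working with BAG3 in autophagy and genes listed as working with BAG6 were looked at as well. These lists too were chosen with earlier results of these data known. Of 9 listed BAG3 autophagy partners 8 were tested, and RSL3 called 1 in MM1R, 1 in MM1S and 2 averaged, against 1.2%, 1.61% and 3.24% of all tested genes. GABARAPL1, an autophagosome protein, rose by 2.65 log2 units averaged over lines (SE 0.34, adjusted p = 0.00016, edgeR). SQSTM1, the autophagy receptor p62, had a fitted value of 2.58 (adjusted p = 0.0225, edgeR), but untreated libraries held 1 to 4 counts and no library more than 30, so its size is not fixed. Of 7 tested genes of the BAG6 complex, 0 were called by RSL3 in edgeR, against the same shares of all tested genes. A count of 0 among 7 genes is near those shares. The median log2 fold change of the 7 genes averaged over lines was −0.11. UBL4A, a BAG6 partner, had −0.72 averaged over lines (SE 0.20, adjusted p = 0.0235, under the fold limit).

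The genes whose levels ran most like those of BAG3 over the 18 libraries, after each line was centred on its mean, were DNAJB1 (Pearson r = 0.993), HSP90AA1 (0.984), HSPA6 (0.982), DEDD2 (0.982) and a copy row of HSPA1B (0.981). HSPB1 ran most like MORF4L2 (0.952) and JOSD1 (0.938), and UBB ran most like RNF216P1 (0.969). Without centring, DNAJB1 (0.989) and RNF216P1 (0.976) again led for BAG3 and UBB, whereas ZNF394 (0.927) and GLRX (0.924) led for HSPB1. Among the members, r was 0.836 for HSPB1 with BAG3, 0.886 for UBB with BAG3, 0.900 for UBB with HSPB1 and 0.750 for BAG6 with BAG1. These values describe libraries that share treatment, passage and depth, and carry no test.

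**Figure D5:**
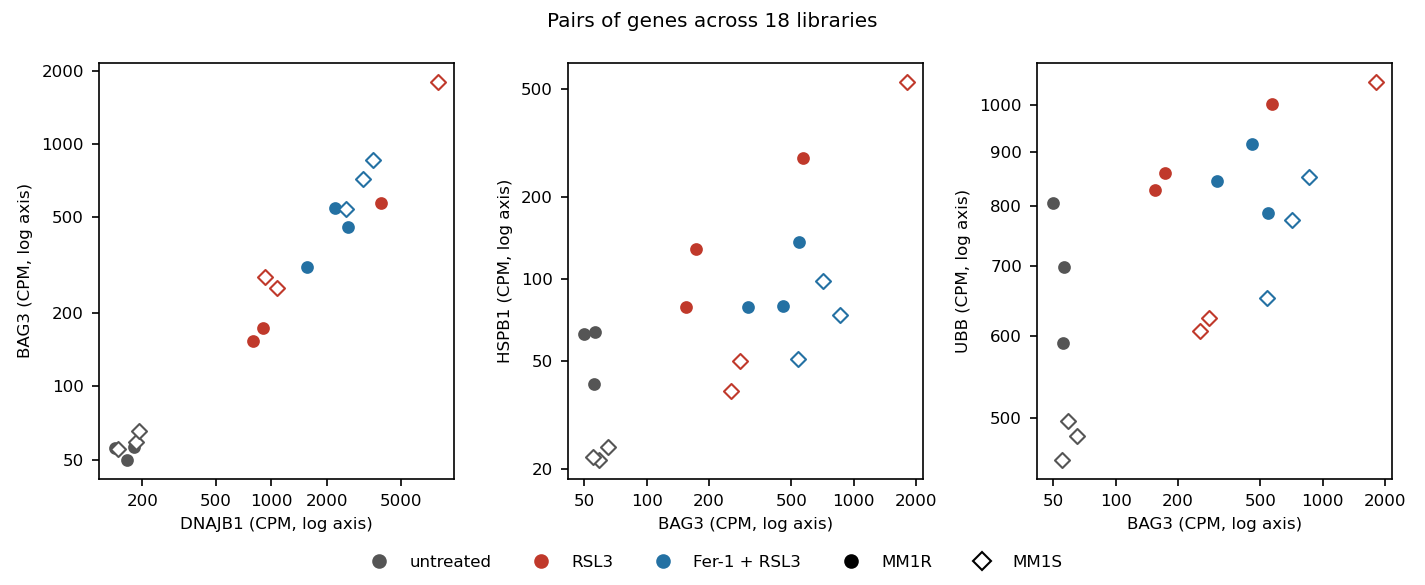
Levels of BAG3 against DNAJB1, HSPB1 against BAG3 and UBB against BAG3 in CPM on log axes over 18 libraries, with filled circles for MM1R, open diamonds for MM1S and colour for treatment. The points of BAG3 and DNAJB1 fall along 1 line in both cell lines (r = 0.993 after centring), while HSPB1 lies lower in MM1S than in MM1R in the untreated libraries.

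In hg19, BAG3 lies at chromosome 10, 121410892 to 121437331 on the plus strand, HSPB1 at chromosome 7, 75931990 to 75933612 on the plus strand and UBB at chromosome 17, 16284112 to 16286059 on the plus strand. BAG1 lies on chromosome 9, 33247818 to 33264718, BAG5 on chromosome 14, 104022882 to 104028994, BAG6 on chromosome 6, 31606805 to 31620482, and CRYAB on chromosome 11, 111779288 to 111794446, all on the minus strand. BAG2 lies on the plus strand of chromosome 6 at 57037124 to 57054631, and BAG4 on the plus strand of chromosome 8 at 38034051 to 38070819. The values are counts over whole genes and do not separate exons or isoforms.

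COL1A1, a fibroblast collagen gene from the list of other cell types, was at 19.5 CPM in MM1S RSL3 replicate 1 and at 0.452 to 3.93 CPM in the other 17 libraries. The summed CPM of the listed markers of other cell types ran from 17.0 to 20.5 in untreated and 19.9 to 25.4 in RSL3-treated MM1R, and from 10.6 to 14.1 and 12.4 to 35.03 in MM1S. With Fer-1 + RSL3 the sum was 16.01 to 21.9 in MM1R and 12.2 to 16.3 in MM1S. Of 7 listed genes 4 were tested, and RSL3 called 1 averaged over lines, against 3.24% of all tested genes. This was COL1A1 (1.94 log2 units, SE 0.61, adjusted p = 0.0398, edgeR). Its part in the BAG3, HSPB1 and UBB values of that library was not tested.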

How the data were processed

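RNA from 18 samples of the MM1S and MM1R lines (6 groups of 3) was sequenced as paired 50 base reads. Per the labels and the study's methods, reads were checked with FastQC 0.11.5 and aligned to hg19 with STAR 2.7.3a. The counting tool, annotation and strand setting are not given in the sources used here. The authors deposited a table of raw counts and a normalized table (unit signal), which equals the deposited counts divided by 1 size factor per library. The raw counts were used for all levels and tests. In R 4.3.3, edgeR 4.0.16 fitted 1 quasi-likelihood model of 6 group means to all 18 libraries (filterByExpr with a minimum count of 10, TMM scaling, Benjamini-Hochberg adjustment over 14281 genes). A gene was called at an adjusted p under 0.05 with an absolute log2 fold change over 1. Intervals are 95% intervals from the fitted value, its standard error and a t quantile on 12 residual degrees of freedom. The test also used prior degrees of freedom (median 4.66), so the intervals are somewhat wider than the test implies. For HSPB1 after RSL3 in MM1R, the interval was −0.005 to 3.08 at an unadjusted p of 0.0446 (edgeR). Correlations used log2(CPM + 0.5). The alternatives were DESeq2 1.42.0, RLE and upper-quartile scaling, no filter or a minimum count of 50, no limit on the fold change, 1 line alone, leaving out each library, passage as a block, the authors' normalized values for levels, and no centring for the correlations. Libraries held 17635438 to 19368343 counts, and intervals from few counts cover counting error only.

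Within a line, the untreated, RSL3 and Fer-1 + RSL3 libraries of the same replicate share a passage number, so passage pairs them by the labels. Same-passage libraries deviated together, with a median correlation of 0.282 in MM1R (0.0616 to 0.575, 9 pairs) and 0.437 in MM1S (0.236 to 0.719, 9 pairs). Positions came from GENCODE on hg19 and promoter sequences from RefSeq on GRCh38.p14. The members and gene lists were chosen with earlier results of these data known. Genes named beside the members are those of the lists or the genes most correlated with BAG3, HSPB1 or UBB. The steps were tested on simulated data. 1 gene of the lists is not reported here.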

Additional observations from a re-analysis of the deposited data

Results flagged for a closer look

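The RSL3 to untreated log2 ratio of BAG2 differed in sign between the lines, mostly by small amounts. It was 0.41, 0.01 and 0.10 in MM1R replicates 1 to 3 and −0.24, −0.06 and −0.02 in those of MM1S. The RSL3 and untreated groups overlapped in both lines, and neither line passed (adjusted p = 0.727 in MM1R and 0.810 in MM1S, edgeR). BAG2 was higher after RSL3 in 3 of 3 MM1R passages and in 0 of 3 MM1S passages, and the median log2 ratio was 0.161 higher in MM1R than in MM1S. The interaction of line and RSL3 was 0.25 log2 units (SE 0.25, adjusted p = 0.9999, edgeR), so the difference did not pass.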

How the results depend on the processing

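Over the 10 comparisons, the number of called members stayed within 1.5 times of its main value in 231 combinations of comparison and setting and moved further in 25, and no called value changed sign. Among values that were not called, the interaction and Fer-1 + RSL3 against RSL3 in MM1S turned sign for BAG3 and HSPB1 without MM1S RSL3 replicate 1. In the same fit, Fer-1 + RSL3 against RSL3 turned sign for UBB in MM1S and averaged over lines. With no filter on low counts, RSL3 called 2 members in MM1R, Fer-1 + RSL3 against RSL3 called 1 in MM1S and 1 averaged over lines, Fer-1 + RSL3 against untreated called 2 in MM1S, the untreated lines differed in 1 and the interaction in 2. That fit took 27858 genes, and its prior degrees of freedom were 1727 against 4.66 in the filtered fit. With the libraries of 1 line only, RSL3 called 2 in MM1R and 0 in MM1S (BAG3 3.69 log2 units with adjusted p = 0.0573, HSPB1 3.18 with adjusted p = 0.128, edgeR, against 3.70 and 3.19 in the fit to all libraries). With the adjusted p alone and no fold limit, Fer-1 + RSL3 against untreated called 2 in MM1S, with UBB added. UBB was also added for RSL3 against untreated in MM1S (adjusted p = 0.0483) and averaged over lines (adjusted p = 0.0123, edgeR). At that limit alone, 659, 524 and 2215 of the 14281 tested genes passed in these comparisons, in the order named. When 1 library was left out at a time, RSL3 called 0 to 2 members in MM1R and 1 to 2 in MM1S, Fer-1 + RSL3 against untreated called 1 to 2 in MM1S, and the untreated lines differed in 0 to 1. No share of all genes called stands beside these counts for the fits without the filter, with 1 line or with 1 library left out. The counts of those fits therefore do not set the members apart. The cause of these changes was not tested.

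With passage as a replicate block, the paired fit called 1 member in MM1R, 2 in MM1S and 2 averaged over lines for RSL3, and 1 in each line for Fer-1 + RSL3 against untreated, as without the block, and it changed no other call of a member. Over all genes the block moved counts by over 1.5 times, for RSL3 from 171 to 410 in MM1R and from 230 to 387 in MM1S, for Fer-1 + RSL3 against untreated from 309 to 521 and from 195 to 383, for Fer-1 + RSL3 against RSL3 from 0 to 12, 0 to 5 and 8 to 53, and for the untreated lines from 662 to 1034. The lines share no passage, so the block sets the line difference against the spread within passages only. CRYAB and SQSTM1 are limited by their low counts, and the reason for these low counts was not tested.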

Other observations

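CD38, a surface glycoprotein of plasma cells, was lower in untreated MM1R than in untreated MM1S, with a difference of −1.06 log2 units (SE 0.24, adjusted p = 0.0112, edgeR). RSL3 called 0 of 9 tested plasma cell markers in MM1R, in MM1S or averaged over the lines (edgeR). The shares of all tested genes called were 1.2%, 1.61% and 3.24%. On average over the lines, 5 of the 9 were higher, against 49.98% of all tested genes. These counts are near those shares. CD38 had 0.54 log2 units averaged over lines (SE 0.17, adjusted p = 0.0408, edgeR), under the fold limit, and was higher in 6 of 6 passages. SDC1 and TNFRSF17, the plasma cell surface proteins CD138 and BCMA, had −0.45 (SE 0.11, adjusted p = 0.0113) and −0.53 (SE 0.14, adjusted p = 0.0155, edgeR), also under the fold limit, and were lower in 6 of 6 passages.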
